A study of Mus musculus with 6 samples.

Results

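The 9 genes described here encode parts of the adhesion machinery with which basal keratinocytes hold on to the basement membrane. They are the laminin-332 chain genes *Lama3* and *Lamb3*, the collagen genes *Col17a1* and *Col7a1*, the integrin subunit genes *Itga3*, *Itga6*, *Itgb1* and *Itgb4*, and *Dst*, which encodes the plaque protein BPAG1. The genes were picked by name. Matching the transcript accessions of the array's probes to these genes gave 14 of the 55681 probes, for 9 of the 21368 genes that could be named. *Dst* had 4 probes, *Lama3* and *Itgb1* had 2 each, and the other 6 genes had 1 each.

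Hemidesmosomes are rivets in the basal membrane of the keratinocyte. The integrin α6β4 and the transmembrane collagen XVII bind laminin-332 outside the cell, while BPAG1 and plectin tie them to keratin filaments inside it. Integrin α3β1 binds the same laminin but connects to actin, and anchoring fibrils of collagen VII fasten the basement membrane to the dermis. Inherited loss of laminin-332, of collagen XVII, of collagen VII or of integrin α6β4 causes skin blistering, and several of them take part in keratinocyte migration over a wound.

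Gene expression was measured on 2-colour arrays in primary keratinocytes from newborn mouse skin, labelled with the strain 129SvEx:C57BL/6. The knockout cells lacked *Sox4* (*Sox4* cKO), *Sox11* (*Sox11* cKO) or both (dcKO), which encode SoxC transcription factors. Floxed alleles were deleted by Cre under the *Krt14* promoter, which is active in keratinocytes, and the Cre line was on FVB/N, so the strain background is mixed. Founders of the cross also carried a *Sox12* null allele. The labels call the control wild type and do not give its Cre, floxed or *Sox12* alleles. The cells had been taken off mitotically inactivated J2 fibroblast feeders before use, so these are cultured cells without a dermis. There were 2 arrays per genotype, 6 in all, each with wild-type RNA in the other channel. In every genotype the dyes were swapped between arrays, with knockout cells labelled with Cy5 in replicate 1 and with Cy3 in replicate 2. The labels do not say whether any arrays share wild-type RNA, and p-values measure the spread between these arrays only.

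The targeted transcripts were reduced where the labels say so. The log2 ratio of knockout over wild type was -2.52 for *Sox4* in *Sox4* cKO and -2.52 in dcKO (limma, adjusted p = 0.00400 and 0.00106), and for *Sox11* it was -2.98 in *Sox11* cKO and -3.43 in dcKO (adjusted p = 0.0417 and 0.00664). Between 35.1% and 45% of probes were well above background in a channel, and the number of arrays limits the precision. All 6 keratinocyte markers (*Krt5*, *Krt14*, *Trp63*, *Cdh1*, *Cdh3*, *Perp*) were above background on all 12 channels. Of 8 fibroblast markers, 0 were above background on all channels and 5 were above it on none, with a summed signal of 253 to 301 in knockout and 241 to 272 in wild-type channels. One of them, *Col1a2*, was above background on 11 channels. So were, on all 12, *Itgam* of 4 immune, *Pecam1* and *Kdr* of 3 endothelial and *Mitf* of 5 melanocyte markers. The immune markers summed to 1192 to 2690 in knockout channels. The summed signal of the 6 keratinocyte markers ranged from 202000 to 387700 in knockout channels and from 208700 to 465000 in wild-type channels. Markers of suprabasal keratinocytes summed to 664 to 1187 in knockout and 572 to 1780 in wild-type channels, and the part of this spread in the results was not tested. In bulk RNA, fewer cells of a type and less RNA per cell cannot be told apart.

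All 9 genes were detected in these cells. Of the 14 probes, 12 were above background on all 12 channels, and every gene had at least 1 such probe. The exceptions were both probes for other *Dst* transcripts, 1 of which was above background on no channel. The brightest probe of each gene is reported, and no array was missing for it. Its signal, on a log2 scale after normalisation, is compared only between samples and never between genes, because probes differ in their brightness.

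None of the 9 genes passed the test in any genotype. At an adjusted p below 0.05 (limma, Benjamini-Hochberg over all probes), 0 of 9 were called in *Sox4* cKO, where 0.176% of all probes were called. In *Sox11* cKO 0 of 9 were called beside 0.124% of all probes, and in dcKO 0 of 9 beside 2.06%. At an unadjusted p below 0.05, 1 of 9 was past the threshold in *Sox4* cKO, 4 of 9 in *Sox11* cKO and 5 of 9 in dcKO, against 7.4%, 6.84% and 13% of all probes. The smallest adjusted p values were 0.150 for *Dst* in *Sox4* cKO, 0.335 for *Col17a1* in *Sox11* cKO and 0.0689 for *Itga6* in dcKO. Another processing called some of them in dcKO: centring each array on its median in place of the loess curve called 5 of the 9, and the authors' table of ratios called 3. Among all 55681 probes these called 5483 and 4461 in dcKO, against 1145 in the main fit. That centring also put the median of the 17800 probes above background on all channels at -0.46 in dcKO, against -0.02 with loess, so its values are to be read against -0.46. Those values are given with each gene.

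**Figure D1:**
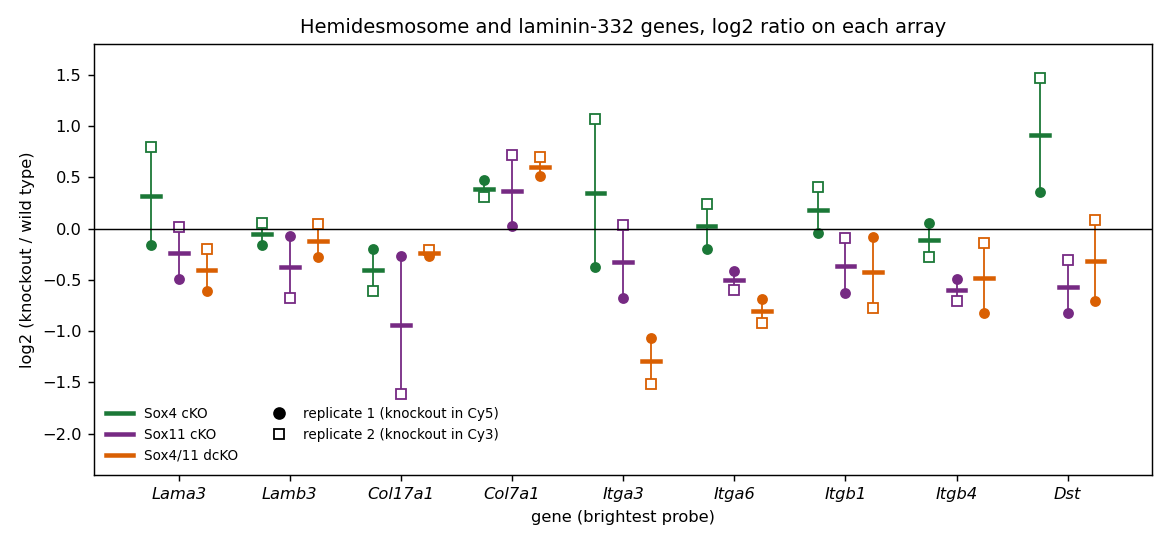
Log2 ratio of knockout over wild type (y axis) of the 9 genes (x axis) on each of the 6 arrays, coloured by genotype. Filled circles are replicate 1, open squares replicate 2, and short bars their mean. *Itga3* in dcKO lies lowest of the means at -1.29 and *Dst* in *Sox4* cKO highest at 0.91, and the 2 arrays of a genotype often lie on either side of 0.

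As a group, the genes had medians below wild type in *Sox11* cKO and dcKO. The median log2 ratio over the 9 genes was 0.18 in *Sox4* cKO, -0.37 in *Sox11* cKO and -0.40 in dcKO, while the median over all probes was 0.00 in each. The *Sox4* cKO median ranged from -0.08 to 0.34 when single arrays were left out and was 0.02 with the mean over all probes of a gene. The genotypes differed in how far the arrays agreed. In *Sox4* cKO 1 of 9 genes was lower and 2 were higher than wild type on both arrays, and 6 were split between the arrays. In *Sox11* cKO 6 of 9 were lower and 1 was higher on both arrays. In dcKO it was again 6 lower and 1 higher. Among probes above background on all channels, the shares lower on both arrays were 24.7% in *Sox4* cKO, 19.9% in *Sox11* cKO and 34.5% in dcKO. The shares higher on both arrays were 25.5%, 21% and 32.7%. The 9 genes are no random draw, and these counts are given as a description with no test.

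The median of the 9 genes differed between the arrays of *Sox4* cKO in sign, at -0.16 on replicate 1 and 0.31 on replicate 2. In *Sox11* cKO it was -0.49 and -0.31, and in dcKO -0.61 and -0.20. Replicate 1, with the knockout in Cy5, gave the lower median in all 3 genotypes. The fitted model carries a term for the dye, which cannot be told apart from any other difference between replicate 1 and replicate 2.

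The laminin-332 chains come first, as the ligand that the receptors share. *Lama3* encodes the α3 chain, which holds the integrin binding site. Its log2 ratios were -0.16 and 0.79 in *Sox4* cKO, -0.49 and 0.02 in *Sox11* cKO, and -0.61 and -0.20 in dcKO. At this probe only dcKO was below wild type on both arrays, with a fitted log2 ratio of -0.40 (SE 0.16, 95% interval -0.78 to -0.03, adjusted p = 0.332). The other *Lama3* probe gave 0.00, -0.27 and -0.38 in the same order, and was also below wild type on both *Sox11* cKO arrays, at -0.19 and -0.34. With median centring, *Lama3* was called in dcKO at -0.94 (adjusted p = 0.0173).

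*Lamb3* encodes the β3 chain. Its ratios were -0.16 and 0.06 in *Sox4* cKO, -0.07 and -0.67 in *Sox11* cKO, and -0.28 and 0.05 in dcKO. The fitted values of -0.05, -0.37 and -0.12 had adjusted p values of 0.979, 0.824 and 0.900. *Lamb3* had the smallest change of the 9 genes in dcKO, and its 95% interval there ran from -0.57 to 0.34.

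Among the receptors, integrin α3 had the lowest value. *Itga3* pairs with *Itgb1* in the actin-linked laminin receptor. In wild-type channels its log2 signal ranged from 10.62 to 12.02 around a median of 11.34. It was 10.88 and 12.09 in *Sox4* cKO, 11.34 and 10.65 in *Sox11* cKO, and 10.73 and 9.92 in dcKO. The upper dcKO sample thus lay just above the lowest wild-type sample, which came from a *Sox11* cKO array.

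Taken against the wild type of the same array, *Itga3* was lower in dcKO by 1.07 and 1.51. The fitted log2 ratio was -1.29 ± 0.32 (SD, n = 2), or 2.45-fold lower (SE 0.29, 95% interval -1.96 to -0.62, adjusted p = 0.0783). In *Sox4* cKO the arrays were split at -0.37 and 1.07, and in *Sox11* cKO at -0.68 and 0.03. *Itga3* was called in dcKO with median centring at -1.83 (adjusted p = 0.00672), with the authors' table at -1.29 (0.0165), from the dcKO arrays alone (0.00661), and without either *Sox11* cKO array (0.0180 each). Its fitted value was -2.05 without replicate 1 of dcKO and -0.53 without replicate 2. With a dcKO array left out, the other is corrected by a dye term taken from the single-knockout arrays alone. That spread is thus set by the dye term as well as by the dcKO ratios of -1.07 and -1.51.

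Because the knocked-out factors bind DNA through an HMG domain, the start regions of *Itga3* and of *Col7a1*, the lowest and highest values in dcKO, are shown. RefSeq gives *Itga3* a pair of starts, and the bases before each are printed, 5′ to 3′ on the gene's strand in GRCm38.p6. The set was picked after the values were seen. Capitals mark matches on either strand to ACAAAG or ACAATG, cores of SOX type sites, to TGAGTCA, the AP-1 site, or to GGGCGG, the GC box. No overlapping matches were present in these windows.

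Itga3, upstream start, chr11:95076715-95076964, minus strand: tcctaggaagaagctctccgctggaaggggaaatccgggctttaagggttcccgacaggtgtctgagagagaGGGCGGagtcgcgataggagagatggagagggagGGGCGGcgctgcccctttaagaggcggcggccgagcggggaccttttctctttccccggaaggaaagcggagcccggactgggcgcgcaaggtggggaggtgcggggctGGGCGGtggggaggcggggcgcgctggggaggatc
Itga3, downstream start, chr11:95069199-95069448, minus strand: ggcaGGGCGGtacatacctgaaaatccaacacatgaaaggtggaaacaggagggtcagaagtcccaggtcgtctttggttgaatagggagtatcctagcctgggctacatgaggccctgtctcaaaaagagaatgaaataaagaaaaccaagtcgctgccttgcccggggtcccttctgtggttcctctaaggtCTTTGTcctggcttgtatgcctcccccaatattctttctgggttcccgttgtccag
Col7a1, chr9:108953336-108953585, plus strand: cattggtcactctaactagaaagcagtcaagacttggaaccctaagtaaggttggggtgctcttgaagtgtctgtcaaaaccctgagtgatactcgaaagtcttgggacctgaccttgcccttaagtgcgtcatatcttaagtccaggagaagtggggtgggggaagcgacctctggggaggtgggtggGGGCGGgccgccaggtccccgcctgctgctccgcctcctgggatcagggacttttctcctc

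The upstream *Itga3* start is rich in G and C (67.6%) and holds 3 GC boxes and none of the other motifs. The downstream start holds 1 GC box and 1 match to ACAAAG, read as CTTTGT on this strand, that begins 56 bases before the start. *Col7a1* holds 1 GC box. Of the 9 genes, 6 had entries in the table of starts, with 9 windows of 250 bases. ACAAAG was present in 3 of these 9 windows (*Itga3*, *Itgb1*, *Dst*), ACAATG and TGAGTCA in 0, and GGGCGG in 5. Among all 32851 windows the shares were 16.5% for ACAAAG, 10.7% for ACAATG, 4.46% for TGAGTCA and 32.7% for GGGCGG. A match is a string of letters and no measured site, and no binding was measured here.

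*Itgb1* encodes the β1 subunit, which pairs with α3 and with many other α subunits. Its ratios were -0.04 and 0.40 in *Sox4* cKO, -0.63 and -0.09 in *Sox11* cKO, and -0.08 and -0.77 in dcKO. The fitted values were 0.18, -0.36 and -0.42 (adjusted p = 0.916, 0.886 and 0.532). The other *Itgb1* probe gave -0.19, -0.18 and -0.19, so the probes disagree in sign in *Sox4* cKO. With median centring, *Itgb1* was called in dcKO at -0.95 (adjusted p = 0.0233).

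*Itga6* encodes the α6 subunit of the hemidesmosome integrin. Its ratios were -0.19 and 0.24 in *Sox4* cKO, -0.41 and -0.60 in *Sox11* cKO, and -0.69 and -0.92 in dcKO. Both genotypes without *Sox11* were below wild type on both arrays. The fitted dcKO value was -0.81 ± 0.17 (SD, n = 2), or 1.75-fold lower (SE 0.17, 95% interval -1.21 to -0.41, adjusted p = 0.0689), and the *Sox11* cKO value was -0.50 (adjusted p = 0.559). It was called in dcKO with median centring at -1.31 (adjusted p = 0.00810), with the authors' table at -0.80 (0.0120), with the dye effect subtracted first (0.0364), from the dcKO arrays alone (0.0422), and without either *Sox11* cKO array (0.0236 each).

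The wild-type side of this ratio stood apart. The wild-type log2 signal of *Itga6* averaged 14.93 on the dcKO arrays and 13.78 on the other 4, where it ranged from 13.52 to 14.35. The dcKO signal averaged 14.12, nearer to the wild type of the other arrays than that of its own arrays was. The lower ratio was thus measured against a high wild-type signal. Including *Itga6*, 4 of the 9 genes had a lower ratio over such a high wild-type signal in dcKO, 4 in *Sox11* cKO and 1 in *Sox4* cKO. In *Sox4* cKO 4 of the 9 (*Itga3*, *Itga6*, *Itgb1*, *Dst*) had a higher ratio over a wild-type signal that was low in the same way. *Itga3* in dcKO was not among these genes, and there the signal of 10.33 lay below the wild type of the same arrays (11.62) and of the other 4 (11.23). For any gene, either the knockout or the wild-type signal must lie farther from the other wild types. The share over all probes was not counted, so these counts are a description only.

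*Itgb4* encodes the β4 subunit, whose long tail binds plectin. Its ratios were 0.05 and -0.28 in *Sox4* cKO, -0.49 and -0.70 in *Sox11* cKO, and -0.82 and -0.14 in dcKO. The fitted values were -0.11, -0.60 and -0.48 (adjusted p = 0.949, 0.550 and 0.372), and the dcKO value was -0.96 without replicate 2 and -0.0035 without replicate 1. Its dcKO signals of 12.48 and 13.07 lay below all 6 wild-type signals, the lowest of which was 13.21. How many of all probes show such a gap was not counted, so it is a description only. *Cd151*, the tetraspanin partner of laminin-binding integrins, was below wild type on all 6 arrays, with fitted values of -0.42, -0.44 and -0.38 (adjusted p = 0.662, 0.670 and 0.430).

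**Figure D2:**
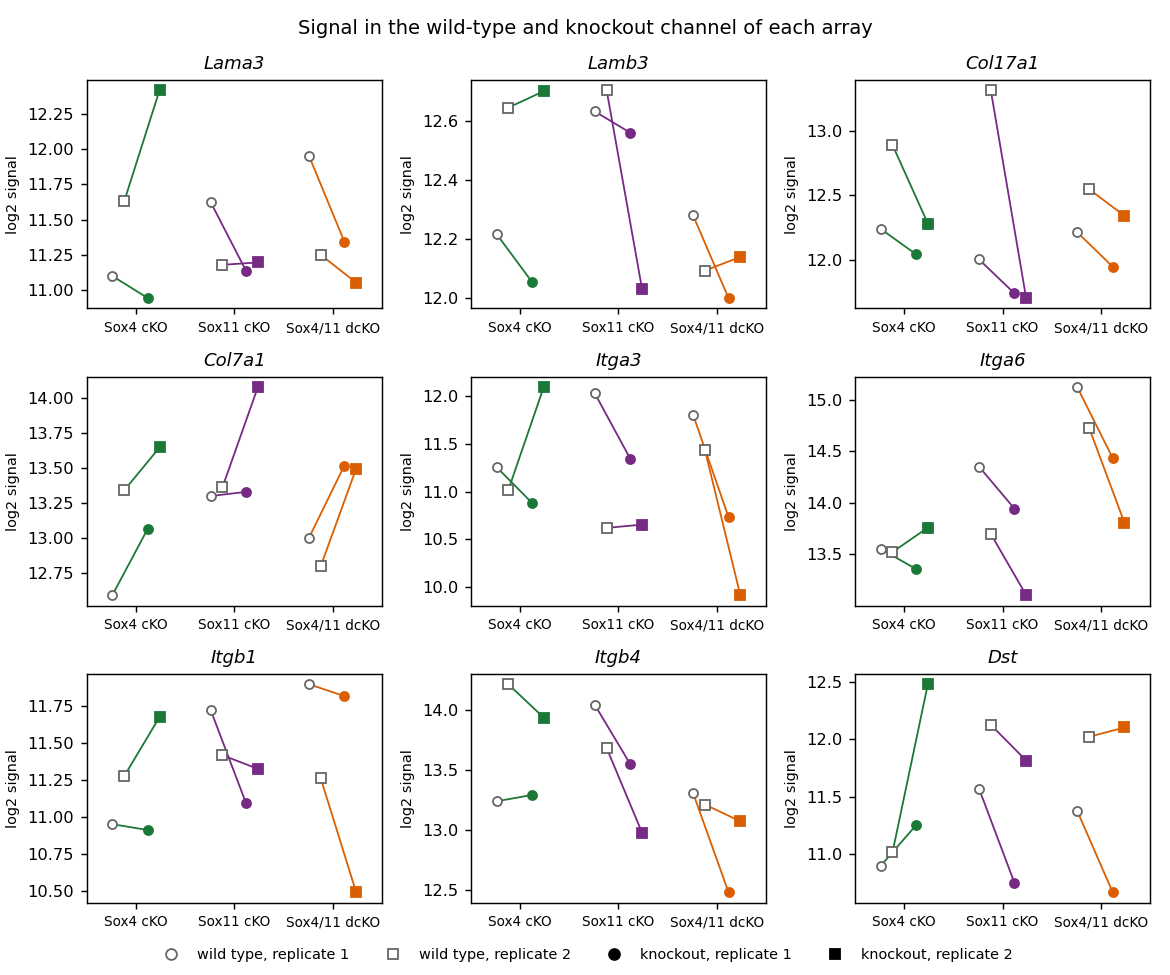
Log2 signal (y axis, a scale of its own for each gene) of the 9 genes in the wild-type channel (open grey) and the knockout channel (filled) of each array, joined by a line, by genotype (x axis). The wild-type symbols of *Itga6* sit higher on the dcKO arrays, at a mean of 14.93, than on the other arrays, at 13.78.

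The collagens of the set had ratios of opposite sign. *Col17a1* encodes collagen XVII, the transmembrane collagen of the hemidesmosome. It was lower than wild type on all 6 arrays, by 0.20 and 0.61 in *Sox4* cKO, by 0.26 and 1.62 in *Sox11* cKO, and by 0.27 and 0.21 in dcKO. The fitted values were -0.40, -0.94 and -0.24 (adjusted p = 0.775, 0.335 and 0.801).

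The *Sox11* cKO value of *Col17a1* rested mainly on replicate 2. Its knockout signals of 11.74 and 11.70 were close to each other and below every other sample, while the wild-type signals beside them were the lowest of the 6 wild-type signals on replicate 1 and the highest, 13.32, on replicate 2. Without replicate 1 of *Sox11* cKO the fitted value was -1.53 and was called (adjusted p = 0.0127), and without replicate 2 it was -0.35 and was not.

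*Col7a1* encodes collagen VII, the anchoring fibril protein, and alone among the 9 genes lay above wild type on all 6 arrays. Its ratios were 0.47 and 0.31 in *Sox4* cKO, 0.03 and 0.71 in *Sox11* cKO, and 0.52 and 0.69 in dcKO. The fitted dcKO value was 0.60 ± 0.13 (SD, n = 2), or 1.52-fold higher (SE 0.18, 95% interval 0.18 to 1.03, adjusted p = 0.176). Its dcKO signals of 13.52 and 13.49 lay above all wild-type signals, which reached 13.36. As for *Itgb4*, the share of all probes with such a gap was not counted. With the authors' table it was called in dcKO at 0.61 (adjusted p = 0.0343).

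*Dst* and plectin form the inner plaque. *Dst* ratios were 0.35 and 1.46 in *Sox4* cKO, -0.82 and -0.31 in *Sox11* cKO, and -0.71 and 0.08 in dcKO. It was therefore higher on both *Sox4* cKO arrays, lower on both *Sox11* cKO arrays and split in dcKO. The fitted values were 0.91 (95% interval 0.53 to 1.29, adjusted p = 0.150), -0.56 (adjusted p = 0.431) and -0.31 (adjusted p = 0.512). The *Sox4* cKO arrays also held the lowest *Dst* signals among the wild-type channels, at 10.90 and 11.02, beside 11.38 to 12.13 on the other 4.

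The *Dst* probes did not give 1 answer. The gene has several transcripts, and the probes are annotated to different ones. The mean log2 signal was 11.50 at the reported probe, and lower at the second (6.69) and the third (5.98). The second probe gave -0.29, 0.12 and 0.30 in the order of the genotypes above. The third gave 0.30, -0.55 and -0.61, with the sign of the reported probe in each. The last probe, above background on no channel, gives no level. *Dst* in *Sox4* cKO was called with the authors' table at 0.91 (adjusted p = 0.0314) and without either *Sox11* cKO array (0.0274 each), and in dcKO with median centring at -0.89 (0.0293).

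*Plec* encodes plectin, the other plaque linker. Its ratios were 0.48 and 0.52 in *Sox4* cKO, -0.41 and -0.27 in *Sox11* cKO, and -0.47 and -0.71 in dcKO. Arrays of the same genotype lay close together. The fitted values were 0.50 (adjusted p = 0.498), -0.34 (0.746) and -0.59 (0.117).

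**Figure D3:**
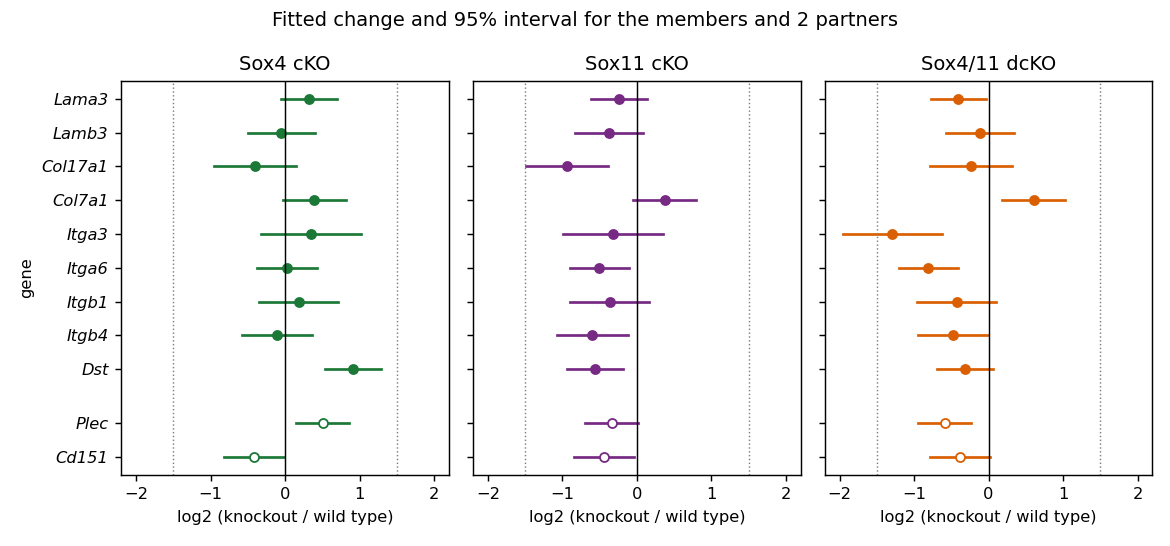
Fitted log2 ratio of knockout over wild type (x axis) with its 95% interval for the 9 genes (filled) and the partners *Plec* and *Cd151* (open), by genotype (panels). Dotted lines mark a log2 ratio of 1.5 in either direction, and the interval of *Itga3* in dcKO, from -1.96 to -0.62, reaches past the lower one.

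The 95% intervals come from a fit whose dye term takes up part of the gap between the arrays of a genotype. They can be narrower than that gap. *Itga3* in *Sox4* cKO had ratios of -0.37 and 1.07 and an interval of -0.32 to 1.02. The intervals are thus no firm bound on a missed change. In *Sox4* cKO and in *Sox11* cKO the 95% intervals of all 9 genes lay within a log2 change of 1.5 either way, the size that the study's methods use as a threshold. *Col17a1* in *Sox11* cKO was only just inside, at -1.49 to -0.39, with ratios of -0.26 and -1.62. In dcKO 8 of 9 were inside, and *Itga3* was not. Among probes above background on all channels, 97.5%, 97.2% and 94.4% were inside in *Sox4* cKO, *Sox11* cKO and dcKO.

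The genotypes were also compared with each other. At an adjusted p below 0.05, 0 of 9 genes differed between dcKO and *Sox4* cKO, where 0.673% of all probes did. For dcKO against *Sox11* cKO it was 0 of 9 beside 0.481%, and for *Sox4* cKO against *Sox11* cKO 0 of 9 beside 0.0108%. Departure from additivity in dcKO was called for 0 of 9 and for 0.329% of all probes. At an unadjusted p below 0.05 the counts were 4, 1, 2 and 3 of 9 in that order, beside 12.1%, 10.3%, 6.35% and 10.8% of all probes.

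*Dst* came nearest to the threshold in both comparisons with *Sox4* cKO. It was lower in dcKO than in *Sox4* cKO by 1.22 (95% interval -1.75 to -0.69, adjusted p = 0.0748). The difference of *Sox4* cKO minus *Sox11* cKO was 1.47 (95% interval 0.94 to 2.01, adjusted p = 0.162). *Itga3* had the largest difference between dcKO and *Sox4* cKO, at -1.64 (adjusted p = 0.146). *Plec* differed between them by -1.09 (adjusted p = 0.0837). All 9 genes had a higher ratio in *Sox4* cKO than in *Sox11* cKO, by 0.02 for *Col7a1* to 1.47 for *Dst*. The share of all probes with this order was not counted. The *Sox4* cKO arrays also disagreed, with 6 of 9 genes lower than wild type on replicate 1 and 7 of 9 higher on replicate 2.

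The levels of conditions with similar means mostly overlapped. When the mean signals of the 4 conditions were ordered for each gene, most neighbours could not be separated by their ranges. The exceptions among neighbours were *Col17a1*, where *Sox11* cKO lay below all other samples, and *Itga6*, where both dcKO signals lay above those of *Sox4* cKO. Conditions further apart in that order were not compared in this way. Gaps between them exist, as for dcKO against wild type in *Itgb4* and *Col7a1*. With 2 samples per knockout such gaps are weak evidence, and the share of all probes with them was not counted. Wild type had the highest mean for *Lamb3*, *Col17a1*, *Itga6*, *Itgb1* and *Itgb4*, and the lowest for *Col7a1*. *Sox4* cKO had the highest mean for *Lama3*, *Itga3* and *Dst*.

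The rest of the adhesion system was examined through lists that held the genes around these 9. Of 6 partners and keratins, 0 were called in any genotype, and the median log2 ratio in dcKO was -0.20. Of 12 integrin adaptors and activators, 0 were called, with a median of -0.40 in dcKO. Of 22 other basement membrane genes, 3 rose and 2 fell in dcKO, and 1 fell in *Sox11* cKO. Of 16 other integrin subunits, 1 rose and 1 fell in dcKO, and of 7 processing enzymes 2 rose. No gene of these lists was called in *Sox4* cKO. Their medians in dcKO were 0.06, -0.02 and 0.12 beside 0.00 over all probes.

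The calls among these genes are ratios to the wild type of the same arrays. For 6 of the 9 called in dcKO, the mean of that wild-type signal lay farther from the mean of the other 4 wild types than the dcKO mean did. The share over all probes was not counted here either. The laminin chains called in dcKO were *Lamb1* and *Lamb2*. *Lamb1*, the β1 chain of laminin-111 and laminin-511, had ratios of -0.78 and -1.80 in dcKO and fell by 1.29 in the fit (adjusted p = 0.0328). *Lamb2*, the β2 chain that replaces it in other laminins, had ratios of 0.94 and 1.77 and rose by 1.35 (adjusted p = 0.0162). Ratios of *Lamb1* and *Lamb2* were -0.02 and -0.13 in *Sox11* cKO and 0.18 and -0.67 in *Sox4* cKO, none of which was called. The *Lamb1* signal averaged 11.56 in dcKO, 12.85 in the wild type beside it and 11.71 in the other wild-type channels. For *Lamb2* these were 8.12, 6.77 and 8.20. For both genes the dcKO mean was close to the mean of the other wild types. Single channels of those wild types ranged from 10.81 to 12.89 for *Lamb1* and from 7.36 to 8.72 for *Lamb2*.

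Among collagen IV genes, the ratio of *Col4a5* was called in opposite directions in dcKO and *Sox11* cKO. Its ratios were 2.16 and 1.15 in dcKO and -1.11 and -2.27 in *Sox11* cKO (adjusted p = 0.00374 and 0.0169). The wild-type channels of the dcKO arrays were not well above background, so the rise is given as at least 2.94-fold. This is the mean signal in dcKO over the mean, in the wild-type channels, of the lowest signal among probes well above background or the probe's own, whichever was higher. The *Col4a5* signal itself was similar in the knockouts, at 6.61 in dcKO and 6.14 in *Sox11* cKO, while the wild type beside them stood at 4.96 and 7.83. The other 4 wild-type channels averaged 7.45 (range 6.14 to 9.37) and 6.01 (range 4.76 to 7.99). *Col4a4* rose in dcKO, with ratios of 1.31 and 0.71 (fitted 1.01, adjusted p = 0.0478). Its other probes, above background on no dcKO array, gave 0.40 and -0.22. The dcKO signal of *Col4a4* averaged 6.24, below the mean of 6.76 of the other wild types, which ranged from 5.30 to 8.97. *Hspg2*, the heparan sulphate proteoglycan perlecan, fell by 1.11 (adjusted p = 0.0468), and its other probe gave -0.40 (adjusted p = 0.383).

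Integrin α7, another laminin-binding subunit, fell in dcKO relative to the wild type of the same arrays. *Itga7* ratios were -2.27 and -2.18 in dcKO, with a fitted -2.23 (SE 0.23, adjusted p = 0.00664). They were positive in both single knockouts, at 0.92 in *Sox4* cKO and 0.88 in *Sox11* cKO, neither of which was called (adjusted p = 0.386 and 0.361). The dcKO signal averaged 6.46, close to the mean of 6.86 of the other wild-type channels, which ranged from 5.88 to 9.57. The wild type of the dcKO arrays averaged 8.69. *Itgb6*, which pairs with αv in the receptor induced in wounded epidermis, rose by 1.44 in dcKO (ratios 1.86 and 1.02, adjusted p = 0.0362), and its other probe gave 0.89 (adjusted p = 0.0641). Its signal was 9.83 in dcKO, 8.38 in the wild type beside it and 9.76 in the other wild types. *Tll1*, a protease of the family that cleaves laminin-332 and procollagen VII, rose by 1.61 (adjusted p = 0.00360), and its other probe gave 0.61 (adjusted p = 0.246). In *Sox4* cKO and *Sox11* cKO the *Tll1* values were 0.15 and 0.92 (adjusted p = 0.876 and 0.105), and -0.04 and -0.16 at its other probe. *Tgm2*, a transglutaminase that crosslinks matrix proteins, rose by 1.71 (adjusted p = 0.0128), and was also called by its other probe at 1.44 (adjusted p = 0.0106). *Tgm2* was above wild type on all 6 arrays, with 1.04 in *Sox4* cKO and 1.29 in *Sox11* cKO (adjusted p = 0.245 and 0.129). The dcKO value was not called against either single knockout (adjusted p = 0.459 and 0.766). For *Tll1* and *Tgm2* the dcKO signals of 8.11 and 14.00 lay above the other wild types as well, which averaged 5.68 and 11.45. All 9 of these dcKO calls were lost with the processed signals and all but *Tll1* with an offset of 50, and without 1 of the dcKO arrays only *Itgb6*, in the absence of replicate 2, stayed called. The value without 1 dcKO array ranged from 0.76 to 2.13 for *Itgb6*, from 0.64 to 1.38 for *Col4a4* and from -1.53 to -0.70 for *Hspg2*. With no replicate block, *Itga7*, *Itgb6* and *Tll1* were called in dcKO and the other 6 were not, nor was *Col4a5* in *Sox11* cKO (adjusted p = 0.370).

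**Figure D4:**
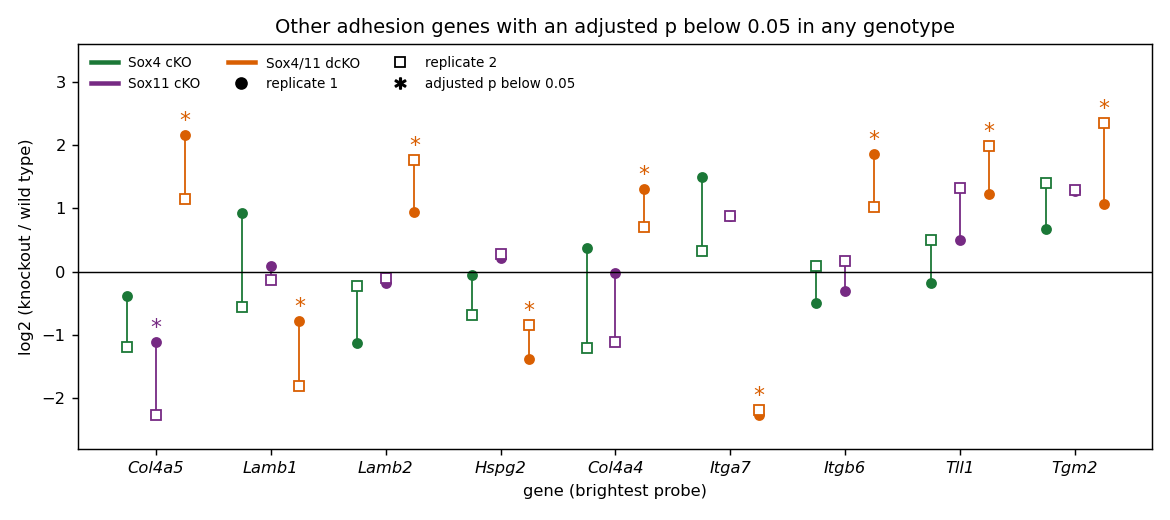
Log2 ratio of knockout over wild type (y axis) on each array for the 9 other adhesion genes (x axis) with an adjusted p below 0.05 in any genotype. Filled circles are replicate 1, open squares replicate 2, and asterisks mark the genotype called. *Itga7* has both dcKO arrays at -2.27 and -2.18, and all single-knockout arrays above 0.

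The mean ratio of the 9 genes over the 6 arrays was -0.03 and 0.38 in *Sox4* cKO, -0.42 and -0.36 in *Sox11* cKO, and -0.45 and -0.33 in dcKO. Among 10142 named genes above background on all channels, those whose ratios followed this mean most closely were *Gemin2* (Pearson r = 0.992), *Plekhj1* (0.991), *Phf5a* (0.991), *Rps19bp1* (0.989) and *Thap4* (0.986). The r was taken over 6 arrays that share slide and scan, with the dyes swapped between replicates, and it is a description of these arrays. Within the 9, *Lama3* and *Dst* had an r of 0.92 and *Lama3* and *Itga3* of 0.85, while *Itga3* and *Col17a1* had -0.47.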

How the data were processed

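Expression was measured in keratinocytes of 3 knockout genotypes, with 2 arrays per genotype and wild-type RNA on each of the 6 arrays. The sample titles gave the genotype. The 9 genes and the gene lists were chosen with earlier results of these data known.

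The scanner files deposited by the authors hold linear intensity values per spot and channel, read with Agilent Feature Extraction 11.0.1.1. They also hold processed intensity values, from which that software had taken the background and a dye bias, per the file headers. A further table deposited by the authors holds log2 ratios that, per the study's methods, had been through loess and a removal of the dye effect. It correlated with knockout over wild type at r = 0.89 to 0.95 on all 6 arrays, and column medians ran from -0.007 to 0.005. A log10 ratio of Cy5 over Cy3, computed by that software per the file headers, was not used. The mark columns deposited by the authors are other values, which state whether a spot was above background, saturated or an outlier. Processed values and the table served as alternatives only.

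Median signals and backgrounds were used. Correction was by normexp with an offset of 16 (limma 3.58.1, R 4.3.3). Of 62976 spots, 3671 controls were dropped after correction, 194 to 288 outlier spots per array were set to missing, and 0 spots were saturated. Loess was applied within arrays and spots of a probe were averaged. Because the ratios carry the offset, folds of dim genes are understated. Signal levels came from the same loess values after Aquantile scaling between arrays.

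The model (lmFit, eBayes) held 3 genotype terms, with the sign turned on swapped arrays, and a dye term. It left 2 residual degrees of freedom, to which the prior added 5.37. The 7 comparisons were adjusted by Benjamini-Hochberg over all 55681 probes of each. The dye followed the replicate number, so the dye term is the replicate block. Deviations of same-numbered arrays from their genotype means correlated at r = 0.316, 0.244 and 0.125, all above 0.1. Dye and number are confounded. With 1 slide and 1 scan for all arrays, slide and scan allow no batch test.

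Of 29786 probes with a RefSeq accession, 28331 (50.9% of all probes) were named through a table for GRCm38.p6. All 9 genes are named, with the partners *Plec* and *Cd151*; 1 planned partner is not reported here; other genes of the lists are named where an adjusted p was below 0.05 in a genotype. Genes most alike were the 5 with the highest Pearson r to the mean of the 9. The model was also run on simulated data with independent noise and no dye or replicate effect, so that run does not bear on those effects. Alternatives were an offset of 50, processed signals, median centring, the authors' table, no replicate block, the dye effect subtracted first, the arrays of 1 genotype alone, a filter on dim probes, the mean over a gene's probes, and leaving out each array.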

Additional observations from a re-analysis of the deposited data

Results flagged for a closer look

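Of the 9 hemidesmosome and laminin-332 genes, 0 had a wild-type signal set apart from the other 5 by Dixon's criterion, which chance alone meets in about 1 in 20 groups, and 0 differed between genotypes at an adjusted p below 0.05.

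Among the other adhesion genes named, 6 differences between genotypes passed the limma test. The log2 ratio of *Itga7* was lower in dcKO than in *Sox4* cKO by -3.14 (adjusted p = 0.0141) and than in *Sox11* cKO by -3.11 (adjusted p = 0.0166). *Col4a5* was higher in dcKO than in *Sox4* cKO by 2.44 (adjusted p = 0.00783) and than in *Sox11* cKO by 3.35 (adjusted p = 0.00338), where the wild-type side of the dcKO arrays was not well above background. *Lamb2* was higher in dcKO than in *Sox4* cKO by 2.03 (adjusted p = 0.0262), and *Tll1* by 1.45 (adjusted p = 0.0331).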

How the results depend on the processing

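Of 405 values of the 9 genes under the alternatives, 234 have the same fold as reported by construction. Of the other 171, 11 reversed, 9 of them among the 54 that leave out an array of the genotype itself. An adjusted p of 0.05 was passed by 19 of the 405. Median centring called 5 genes in dcKO (*Lama3*, *Itga3*, *Itga6*, *Itgb1*, *Dst*) and 5 in dcKO against *Sox4* cKO, and put the median of the 9 at -0.94 in dcKO, where the median of all probes above background was -0.46. The authors' table called 1 gene in *Sox4* cKO, 3 in dcKO, 4 in dcKO against *Sox4* cKO and 1 in *Sox4* cKO against *Sox11* cKO. Subtracting the dye effect first called 1 gene in dcKO and 1 in dcKO against *Sox4* cKO, and the arrays of dcKO alone called 2. With no replicate block, 0 of the 9 genes were called in any comparison, and 3 of the 4 targeted values stayed called. An offset of 50 kept 1 of these 4, and processed signals 0. In *Sox4* cKO the mean over probes turned *Itgb1* to -0.0022 and processed signals turned *Itgb4* to 0.018. The cause was not tested. Calls over all probes were counted under the alternatives for dcKO only, so calls in the other comparisons have no share beside them. Over all probes, 1145 were called in dcKO, 188 with an offset of 50, 0 with processed signals, 5483 with median centring, 4461 with the authors' table, 553 with no replicate block, 2701 with the dye effect subtracted first, 1783 from the dcKO arrays alone and 371 genes by the mean over probes.

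Leaving out single arrays gave 0 to 1 called genes in *Sox4* cKO, 0 to 1 in *Sox11* cKO, 0 to 2 in dcKO, 0 to 2 in dcKO against *Sox4* cKO, 0 to 1 in dcKO against *Sox11* cKO, 0 to 1 in *Sox4* cKO against *Sox11* cKO and 0 to 1 for non-additivity. The gains came without a *Sox11* cKO array, which leaves that genotype with 1 sample assumed to vary like the others. The count in dcKO over all probes was 121 without replicate 2 and 125 without replicate 1 of dcKO, and 2909 without either *Sox11* cKO array. Called targeted values ranged from 2 to 4. The median of the 9 genes in *Sox11* cKO ranged from -0.65 to -0.35. In *Sox4* cKO it ranged from -0.08 to 0.34, and it was 0.02 with the mean over probes. Single genes turned sign in *Sox4* cKO for *Lamb3* (-0.23 to 0.12), *Itga3* (-0.31 to 1.01), *Itga6* (-0.30 to 0.34), *Itgb1* (-0.077 to 0.44) and *Itgb4* (-0.40 to 0.17). In *Sox11* cKO *Lamb3* turned (-0.81 to 0.064), and in dcKO *Lamb3* (-0.38 to 0.14), *Col17a1* (-0.71 to 0.23) and *Itgb1* (-1.01 to 0.16). Where an array of the genotype is left out, its other array is corrected by a dye term from the other genotypes. These values thus also carry that term, and *Col17a1* turned in dcKO although its ratios there were -0.27 and -0.21. The planned run on mean spot signals could not be done, because the scanner values give spot signals as medians and not as means. Signal over background does not limit the reported probes of the 9 genes, all above background on every channel.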
